A study of Mus musculus with 2 samples.

Results

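Mast cells were followed here in the connective tissue that forms at an amputated neonatal mouse digit, 24 h after a bead carrying FGF8 or BSA was put into the wound. They were chosen by their transcripts: a barcode counted as a mast cell where at least 4 of the 7 genes Cma1, Mcpt4, Tpsb2, Tpsab1, Cpa3, Mrgprb1 and Mrgprb2 had a UMI (a unique molecular identifier, 1 per captured transcript), where Pdgfra, a fibroblast receptor gene, had none, and where the number of genes detected lay above 200 and below 7500 and mitochondrially encoded genes gave under 15% of UMIs. Of 9967 barcodes that passed the filter on genes and mitochondrial share, 94 were mast cells: 54 of 6715 in the FGF8 library and 40 of 3252 in the BSA library.

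The study compared FGF8, a growth factor of the limb bud, with the carrier protein BSA at a level of the digit that does not normally regrow. Outbred ICR mice had hindlimb digits 2 and 4 amputated through the second phalanx at postnatal day 3, a bead soaked in FGF8 (500 ng per microlitre) or in 0.1% BSA was implanted at postnatal day 7, and tissue beyond the stump was collected at postnatal day 8. Each condition was 1 pool of 20 digits from 5 mice of both sexes, freed of epithelium, dissociated with Liberase and run as 1 library of 10x 3′ chemistry. With 1 library per condition there is no replicate check: no p-value is given, every interval covers counting error only, and FGF8 treatment cannot be told apart from the pool of mice, the dissection or the library.

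Mast cells are tissue-resident granulocytes that mature under stem cell factor acting on the receptor Kit. Their granules store proteases bound to the proteoglycan serglycin, together with histamine and, in mice, serotonin, and are released when IgE bound to its high-affinity receptor is crosslinked or when Mrgprb2 is engaged. Connective tissue mast cells of the mouse are known for the chymases Mcpt4 and Cma1 (mast cell protease 5), the tryptases Tpsb2 and Tpsab1 and carboxypeptidase A (Cpa3).

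The sequences that precede 3 of the genes that chose the cells are shown because these genes gave most of the UMIs by which a barcode was called, and because Mcpt4 and Cma1, chymase genes of 1 cluster, differed in their presence from cell to cell. In GRCm39, by the GENCODE annotation, Cma1 lies at chr14:56178908-56182132, Mcpt4 at chr14:56297086-56299770 and Ctsg at chr14:56337338-56340031, all on the minus strand. Tpsab1 (chr17:25562212-25564541, minus strand) and Tpsb2 (chr17:25585170-25588079, plus strand) are neighbours, and Cpa3 is at chr3:20269774-20296362 on the minus strand. RefSeq promoter entries on GRCm38.p6 were found for 5 of the 7 genes. The runs below are the 250 bases before the annotated start, written 5′ to 3′ on the gene's own strand, with capitals marking GATAA on either strand (the core bound by GATA factors) and TATAAA on the gene's strand (the TATA box). They come from chr14:55944676-55944925 for Cma1, chr14:56062311-56062560 for Mcpt4 and chr3:20242182-20242431 for Cpa3, all on the minus strand.
Cma1: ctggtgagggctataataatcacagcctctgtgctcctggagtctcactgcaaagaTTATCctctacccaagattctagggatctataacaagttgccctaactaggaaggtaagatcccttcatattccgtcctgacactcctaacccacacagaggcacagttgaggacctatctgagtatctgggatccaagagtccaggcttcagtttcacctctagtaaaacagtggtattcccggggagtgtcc
Mcpt4: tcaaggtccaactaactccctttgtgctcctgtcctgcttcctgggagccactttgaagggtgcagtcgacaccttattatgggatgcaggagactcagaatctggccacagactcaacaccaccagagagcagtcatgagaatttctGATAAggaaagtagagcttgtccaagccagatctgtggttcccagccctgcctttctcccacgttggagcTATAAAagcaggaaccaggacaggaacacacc
Cpa3: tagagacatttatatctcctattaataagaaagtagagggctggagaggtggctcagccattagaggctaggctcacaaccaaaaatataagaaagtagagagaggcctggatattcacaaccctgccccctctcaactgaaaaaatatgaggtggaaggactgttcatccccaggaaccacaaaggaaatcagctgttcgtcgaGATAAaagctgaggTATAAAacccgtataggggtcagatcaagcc
Each run held 1 GATAA match, with its first base at position -194 in Cma1, -102 in Mcpt4 and -45 in Cpa3, counted back from the start. A TATAAA match began at position -32 in Mcpt4 and at -31 in Cpa3, and none was in the Cma1 window. Among 32851 RefSeq promoter windows of the same length, 22.6% held GATAA on either strand and 7.59% held TATAAA on the gene's strand, so a match is a description of these letters and not a site.

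Both libraries gave few and shallow mast cells. The FGF8 mast cells held 254793 UMIs in all (median 2873.5 per cell, range 500 to 16601) and the BSA mast cells 291145 (median 4496.5, range 644 to 22696), against medians of 12354 and 15567 UMIs in the other barcodes. The median mitochondrial share was 2.501% in FGF8 and 1.15% in BSA mast cells, and 2.34% and 2.37% in the other barcodes. The libraries shared 6 barcodes, none of them a mast cell.

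**Figure D1:**
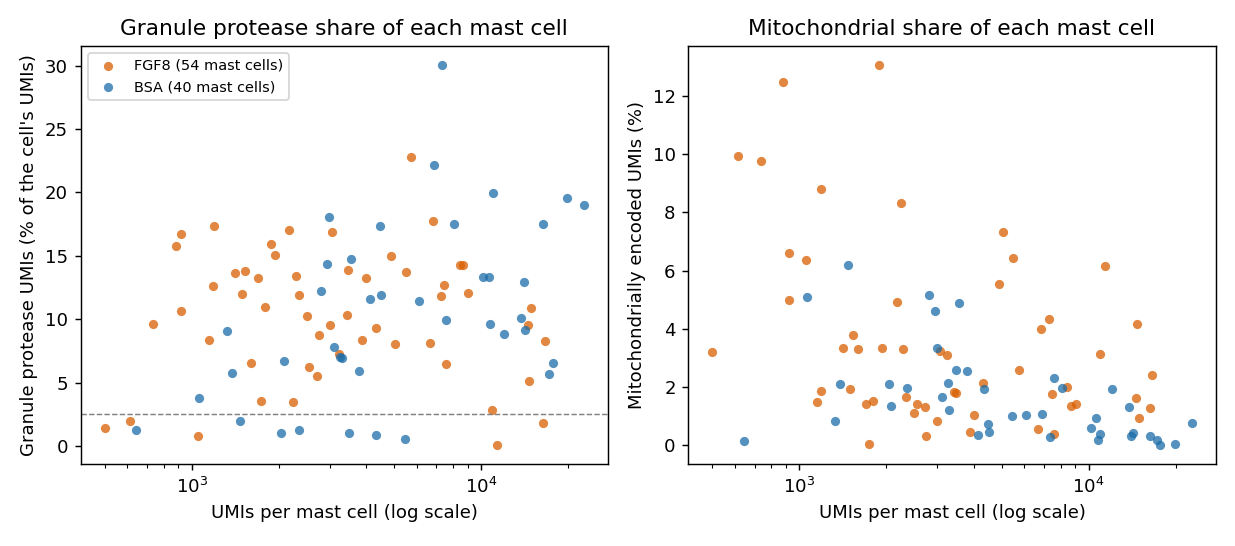
Each point is 1 mast cell, with its UMIs on the x axis (log scale) and, on the y axes, the share of its UMIs from 20 granule protease genes (left, dashed line at 2.5%) and from mitochondrially encoded genes (right). The protease share ran from 0.0528% to 22.8% in FGF8 cells and from 0.568% to 30.0% in BSA cells, with 5 FGF8 and 7 BSA cells below the line.

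Mast cells were 0.804% of FGF8 barcodes (95% Clopper-Pearson interval 0.605 to 1.05%) and 1.23% of BSA barcodes (0.880 to 1.67%), intervals that overlapped. Among barcodes with at least 2000 UMIs, the set kept for thinning, the shares were 0.590% and 1.20%, with 35 mast cells in each. Intervals were not computed for these shares, so the overlap is stated only for barcodes of all depths. In each library 4 further barcodes met the marker count but held a Pdgfra UMI, and 1 without Pdgfra failed the filter on genes or mitochondrial share. Values on either side of the marker count are given as a description, since the same genes set it. With exactly 2 of the 7 genes and no Pdgfra UMI, 41 FGF8 barcodes held 2 to 181 UMIs of them and 15 BSA barcodes 2 to 7. With exactly 3 of the 7 genes, 2 FGF8 barcodes held 3 UMIs of them each and 2 BSA barcodes held 3 and 6. With exactly 4, the 9 FGF8 barcodes had a median of 97 UMIs of these genes, ranging from 6 to 210, and the 2 BSA barcodes had 8 and 40. All 7 genes were found in 12 FGF8 and 24 BSA mast cells.

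Mast cell transcripts were also found at a low level in the rest of each suspension. Cma1 had a UMI in 8.58% of the 6657 FGF8 barcodes and in 7.29% of the 3208 BSA barcodes that were below the marker count, with a median of 1 UMI where it was found. Macrophage-marked barcodes (a UMI of each of C1qa, C1qb and C1qc), neutrophil-marked barcodes and Pdgfra barcodes had Cma1 in 9.36%, 9.02% and 9.01% of FGF8 cells, and in 9.04%, 10.3% and 7.91% of BSA cells. Mast cells had a median of 194.5 Cma1 UMIs (FGF8) and 311.5 (BSA).

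Most mast cell genes that the choice of cells did not use carried the label. Of 11 such genes 10 had at least 50 UMIs, and 9 of these stood over 8-fold above the other barcodes in both libraries. Kit, the stem cell factor receptor, stood at 447 CPM (counts summed over the cells and scaled to a total of 1000000 UMIs, interval 369 to 537) in FGF8 mast cells and 488 CPM (411 to 575) in BSA mast cells, against 2.78 and 2.87 CPM in the other barcodes. Hdc, which makes histamine, stood at 3132 and 2621 CPM against 19.4 and 15.5 CPM, and neutrophil-marked barcodes were next with 462 and 469 CPM. Both genes stood over 100-fold above the pooled other barcodes in both libraries. Srgn, the serglycin core protein, stood at 6083 and 5458 CPM, close to neutrophil-marked barcodes at 4231 and 4564 CPM and far above macrophage-marked barcodes at 216 and 204 CPM. Fcer1g, the signalling chain of several Fc receptors, was shared with macrophage-marked barcodes, at 2818 and 2555 CPM in mast cells and 3253 and 3652 CPM in those. Srgn was shared with neutrophil-marked and Fcer1g with macrophage-marked barcodes. Il1rl1, also not used in the choice, did not stand apart in the FGF8 library, at 157 CPM in mast cells and 183 CPM in Pdgfra barcodes. In the BSA library it stood at 258 and 23.0 CPM. Gata1 had only 10 and 11 UMIs in FGF8 and BSA mast cells.

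**Figure D2:**
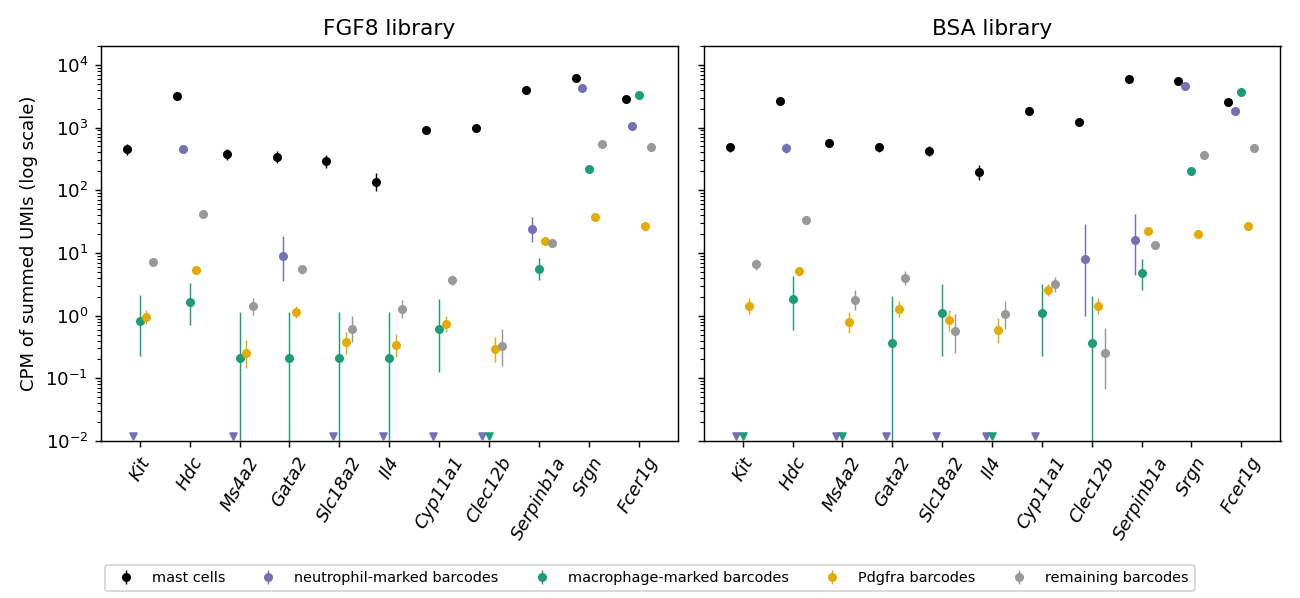
CPM of summed UMIs (log scale) of 11 genes in mast cells and 4 other sets of barcodes, FGF8 library left and BSA library right, with exact Poisson 95% intervals and triangles at the floor for 0 UMIs. Kit at 447 and 488 CPM and Hdc at 3132 and 2621 CPM lay above every other set, while Fcer1g in macrophage-marked barcodes, at 3253 and 3652 CPM, lay above mast cells.

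Depth differed between libraries, so shares of cells with a UMI were compared after each cell was thinned to 2000 UMIs, which left 35 mast cells in each library and dropped 19 FGF8 and 5 BSA cells. At this depth Kit was found in 57.1% of FGF8 and 51.4% of BSA mast cells and in 0.695% and 0.418% of the other barcodes. Before thinning the mast cell shares were 64.8% and 87.5%. Hdc was found in 91.4% and 80.0% of thinned mast cells, and Gata2, a transcription factor of the lineage, in 45.7% and 68.6%. Fcer1a, the IgE-binding chain, was sparse: 11 of 54 FGF8 cells and 2 of 40 BSA cells held a UMI, and 1 BSA cell held 37 of the 38 BSA UMIs. Its partner chain Ms4a2 was found in 55.6% and 77.5% of cells, and in 48.6% and 51.4% after thinning.

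Of 1697 genes with at least 50 UMIs over the mast cells of both libraries, 112 stood over 8-fold above the other barcodes in both libraries (6.60% of the genes measured). This count describes the cells and tests nothing, because the cells were chosen by 7 of those genes. Of 20 granule protease genes 7 reached 50 UMIs, and all 7 were among the 112. Cma1, Mcpt4, Tpsb2, Tpsab1 and Cpa3 of these had chosen the cells. Of 9 genes of histamine and serotonin handling 6 reached 50 UMIs, and all 6 were among the 112. The minimum was counted over mast cells only, so genes with few UMIs there could not enter. Of IgE receptor and signalling genes 7 of 13 passed, of mast cell transcription factors 5 of 11, of serglycin and heparin genes 4 of 7, of growth factor and cytokine receptors 3 of 8, and of cytokine genes 1 of 8. None of 16 immediate early genes and none of 18 cell cycle genes did.

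Among genes that had not chosen the cells, Fcer1a led the ranking by the lower of the ratios, with log2 ratios over the other barcodes of 11.63 in the FGF8 and 11.20 in the BSA library, from few cells. Tpsg1, a membrane-anchored tryptase, followed with 11.40 and 11.03, and the chymase pseudogene Mcpt-ps1 with 10.98 and 11.06. Clec12b, an inhibitory lectin receptor, had 11.71 and 10.19, and Cyp11a1, the first enzyme of steroid hormone synthesis, had 9.15 and 9.41. Both were widespread among the cells. Clec12b was found in 79.6% of FGF8 and 90.0% of BSA mast cells, and Cyp11a1 in 81.5% and 92.5%.

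Genes of monoamine handling were also in the leading 25. Tph1, which begins serotonin synthesis, had log2 ratios over the other barcodes of 9.07 and 10.62. Slc18a2, the transporter that loads amines into vesicles, had 9.38 and 9.08. Slc6a4, which takes serotonin up, had 9.13 and 8.41, and Maob, which oxidises amines, had 8.13 and 7.74. Serpinb1a, an inhibitor of neutrophil-type serine proteases, stood at 4039 and 5973 CPM with log2 ratios of 8.10 and 8.31, and was found in 94.4% and 97.5% of mast cells. Also in the leading 25 were Ctsg (cathepsin G), Il4, the adenosine receptor gene Adora3, the signalling regulator Rgs13, the cathepsin inhibitor gene Cst7, the receptor genes Cd200r4 and Gpr141b, Atp8b5, Slc45a3, Kcnq1, Gm12648, Ms4a2, Hdc, Kit and Gata2. Their log2 ratios in the FGF8 library ran from 7.12 for Gata2 to 9.31 for Ms4a2.

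Several relatives of the marker genes had few or no UMIs, while Ctsg, Tpsg1 and Mcpt-ps1, which lie in the same clusters, were found in many cells. Reads from near-identical copies can be split or dropped when counted. In the chymase and granzyme cluster Mcpt1 and Mcpt9 had 0 UMIs in mast cells of either library, Mcpt2 had 12 in FGF8 and 3 in BSA cells, and Cma2 had 8 and 31. Mcpt8 and Prss34, proteases of basophils, had 8 and 0 UMIs in FGF8 cells and 1 and 1 in BSA cells. Of 16 genes of the Mrgpr receptor family, 11 had no UMI in the mast cells of either library. Besides Mrgprb1 (122 and 211 UMIs) and Mrgprb2 (56 and 80 UMIs), the detected members were Mrgprx2 (11 and 27), Mrgprb8 (4 and 7) and Mrgpre (1 and 1). A count of 0 over all mast cells of a library allows up to 3 UMIs and is not proof of absence.

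Heparin synthesis was seen through the enzymes that modify its sugar chain. Hs6st2, a 6-O-sulfotransferase, stood at 824 CPM in FGF8 and 962 CPM in BSA mast cells, against 26.1 and 21.8 CPM in the other barcodes. Ndst2, the N-sulfotransferase known to be needed for mast cell heparin, stood at 130 and 203 CPM against 8.10 and 8.76 CPM, and Hs3st1, a 3-O-sulfotransferase, at 130 and 244 CPM against 6.26 and 8.54 CPM. These 3 enzymes stood over 8-fold above the other barcodes in both libraries, as did Srgn. Ext1, which extends heparan sulfate in many cells, was less set apart, with 1158 and 1264 CPM against 299.7 and 258 CPM.

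Cytokine transcripts were held by a share of the cells. Il4 had 35 UMIs in 20 FGF8 cells and 57 UMIs in 28 BSA cells, and 34.3% and 31.4% of cells after thinning, against 0.203% and 0.209% of the other barcodes. Il13 had 9 and 18 UMIs, and Tnf 30 and 39. Ccl4 was concentrated: 1 FGF8 cell held all 33 of its UMIs and 1 BSA cell 28 of 29. The stem cell factor gene Kitl was found outside the mast cells, at 96.5 and 99.2 CPM in Pdgfra barcodes and at 7.85 and 10.3 CPM in mast cells. Of 8 genes on the FGF receptor list, 3 had a UMI in the mast cells of each library, with 43 (FGF8) and 31 (BSA) UMIs in all. Fgfr1 and Fgfr2, receptors of FGF ligands, had 21 and 11 UMIs in FGF8 mast cells and 14 each in BSA mast cells, and Fgfr3, Fgfr4 and Fgfrl1 had none. For Fgfr1 this was 82.4 and 48.1 CPM against 168 and 152 CPM in the other barcodes.

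Signs of other cells in the mast cell droplets were measured for the whole marker lists. Macrophage markers summed to 181 CPM in FGF8 and 51.5 CPM in BSA mast cells, against 925 and 1131 CPM in the other barcodes, with 7 and 8 of 9 genes detected. C1qa, C1qb and C1qc had 2, 0 and 0 UMIs in FGF8 cells and 0, 1 and 1 in BSA cells. Fibroblast markers summed to 1644 and 1171 CPM against 17844 and 31453 CPM, with 7 of 8 genes detected in each library, and 4 or more of them were found in 7 FGF8 and 9 BSA mast cells. Erythroid markers summed to 279 and 254 CPM against 42341 and 24657 CPM, with Alas2 at 0, and neutrophil markers to 267 and 92.7 CPM against 575 and 383 CPM. Mural markers summed to 593 and 484 CPM against 619 and 985 CPM, and lymphoid markers to 149 and 144 CPM against 226 and 299 CPM. One FGF8 cell held 115 of the 116 Acta2 UMIs of FGF8 mast cells. Another, with 16347 UMIs and 3 macrophage markers, held 45 of their 46 Cx3cr1 UMIs. A few cells held few protease transcripts. The 5 FGF8 and 7 BSA cells with granule proteases under 2.5% of UMIs gave 11.7% and 6.79% of all mast cell UMIs. The FGF8 cell with the lowest protease share had 11354 UMIs and 7 of the 8 fibroblast markers. Genes outside the choice gave uneven support to the mast cell label in these cells. The 5 FGF8 cells held 60 Srgn and 25 Hdc UMIs, with 59 and 23 in 1 cell. The 7 BSA cells held 4 Srgn and 13 Hdc UMIs, with 12 of Hdc in 1 cell. Of these cells 1 in FGF8 and 4 in BSA held 4 or more fibroblast markers. The part of such cells in the results below was measured by leaving them out.

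Some mast cells with many Cma1 UMIs had few or none of Mcpt4. Among cells with at least 40 Cma1 UMIs, chosen after the values were seen, 15 of 49 FGF8 cells (30.6%, interval 18.3 to 45.4%) and 6 of 31 BSA cells (19.4%, 7.45 to 37.5%) had under 0.02 Mcpt4 UMIs for each Cma1 UMI. The remaining 34 FGF8 cells had ratios from 0.0557 to 0.960 (median 0.283) and the remaining 25 BSA cells from 0.0253 to 0.992 (median 0.271). In the FGF8 library the groups did not touch, since the low cells reached only 0.00532. In the BSA library the highest low cell, at 0.0195, lay next to the lowest of the others, and 4 BSA cells had ratios between 0.02 and 0.1.

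Deep cells were among those without Mcpt4. One FGF8 cell held 1045 Cma1 UMIs and 0 of Mcpt4, and 1 BSA cell held 487 and 0. Over the 15 low FGF8 cells 6152 Cma1 UMIs stood beside 8 of Mcpt4, and over the other 34 cells 9056 stood beside 3622. The BSA sums were 2006 beside 15 in 6 low cells and 16495 beside 5878 in the other 25. The low cells held other granule genes: Cpa3 had 12726 CPM in low and 9527 CPM in other FGF8 cells, and Tpsb2 9676 and 7176 CPM. In BSA cells Cpa3 had 9899 and 17383 CPM and Tpsb2 17418 and 18303 CPM, so the direction for both differed between the libraries.

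**Figure D3:**
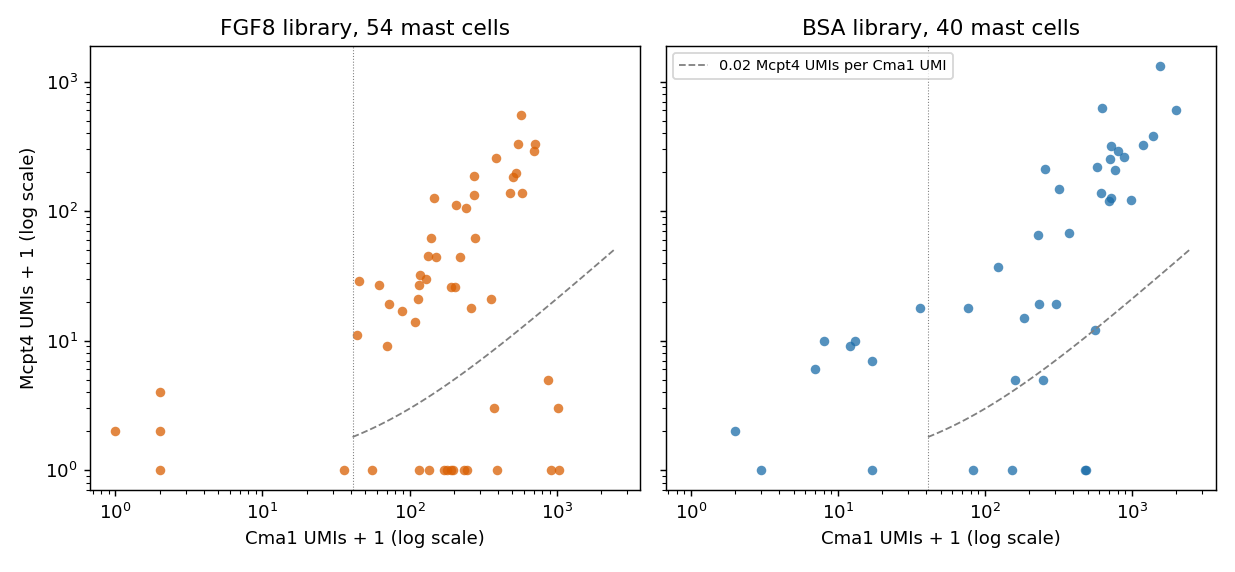
Mcpt4 UMIs against Cma1 UMIs of each mast cell, each with 1 added and on log scales, FGF8 left and BSA right. To the right of the dotted line (40 Cma1 UMIs), 15 FGF8 and 6 BSA cells lie below the dashed line of 0.02 Mcpt4 UMIs for each Cma1 UMI, and 12 and 4 of these have no Mcpt4 UMI.

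Csf2rb2, a receptor chain for interleukin 3, stood higher in the low cells of both libraries. It had 16 UMIs in 15 low and 10 in 34 other FGF8 cells (log2 ratio of CPM 1.48, interval 0.25 to 2.78), and 18 in 6 low and 9 in 25 other BSA cells (3.63, 2.40 to 4.97). In the FGF8 library 1 low cell held 6 of the 16 UMIs and another held 4. In the BSA library 1 cell, with 487 Cma1 UMIs, held 13 of the 18 and also 37 of the 38 Fcer1a UMIs. The same cell held 286 of the 346 Tpsab1 UMIs of the low BSA cells, and 1 FGF8 cell held 171 of 349, so no direction is read for Tpsab1. Fcer1a had 21 UMIs in low and 26 in other FGF8 cells, and 38 and 0 in BSA cells. For Ms4a2 the log2 ratio of low over other cells was 0.80 (0.20 to 1.41) in FGF8 and -0.74 (-1.65 to 0.05) in BSA. Cells of both sexes were among the low FGF8 cells, with 3 cells called female and 7 male. The labels do not tie cells to mice, so cells without Mcpt4 transcripts may come from any number of the 5 mice of a pool.

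FGF8 and BSA mast cells were compared gene by gene on CPM of UMIs summed over the cells. Of 1697 genes, 56 stood over 2-fold higher in FGF8 mast cells (3.30%) and 76 over 2-fold lower (4.48%), and the median log2 ratio of FGF8 over BSA was 0.01. Of all 1697 genes, 838 stood lower in the FGF8 library. Granule proteases stood lower in the FGF8 library in 7 of 7 genes measured, 3 of them by more than 2-fold, with a median log2 ratio of -0.98, although Cma1 and Mcpt4 turned higher when each cell had equal weight. Among the 7, Cma1, Mcpt4, Tpsb2, Tpsab1 and Cpa3 had also chosen the cells, so the protease values are a description. The 25 genes furthest above other barcodes, which include the proteases Ctsg and Tpsg1, were also mostly lower in FGF8 mast cells. Only Fcer1a (0.50), Mcpt-ps1 (0.41) and Hdc (0.26) were higher. The lower ones included Cyp11a1 (-0.99), Gpr141b (-0.84) and Serpinb1a (-0.56). Immediate early genes stood lower in 14 of 16, 7 of them by more than 2-fold, with a median of -0.84, which was -0.31 with equal weight per cell and 0.52 in cells called male. IgE receptor and signalling genes were lower in 9 of 13, none by 2-fold, with a median of -0.58. Mitochondrially encoded genes stood higher in 9 of 9, each by more than 2-fold, with a median of 1.42.

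**Figure D4:**
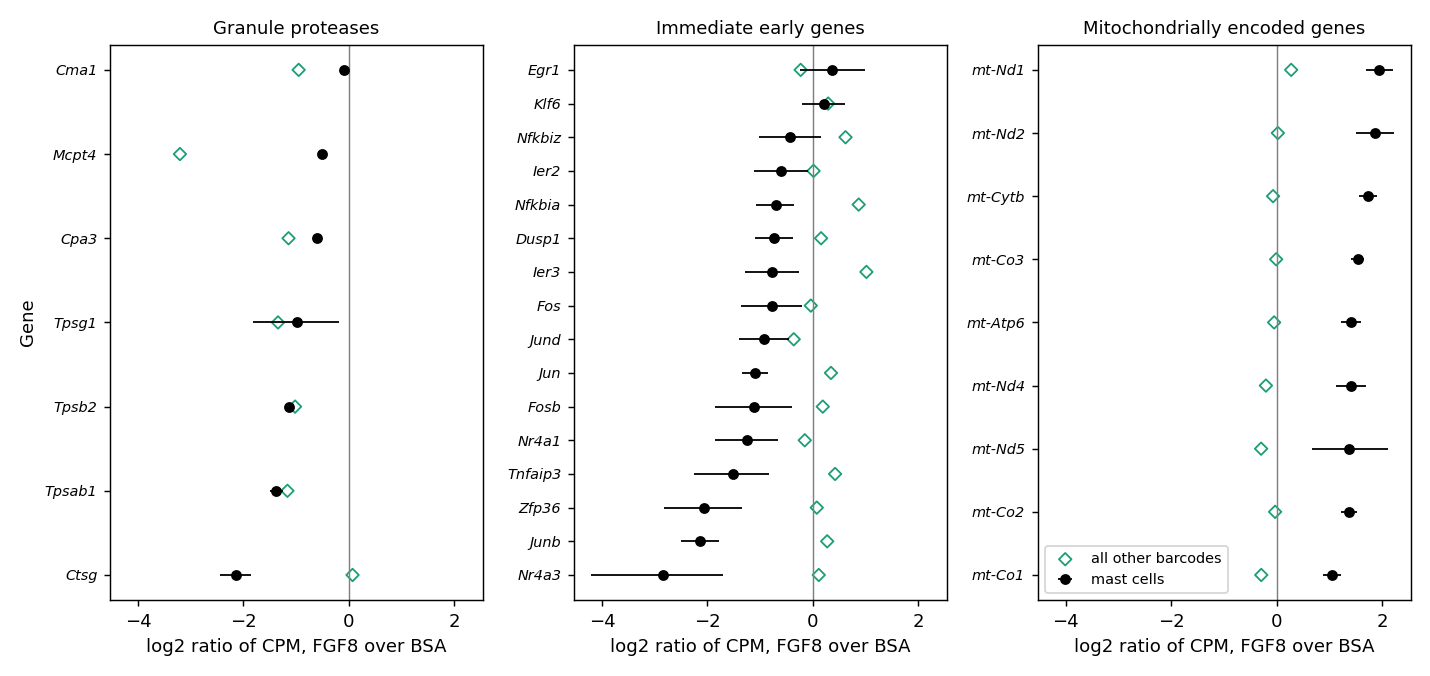
Log2 ratio of CPM, FGF8 over BSA, of each gene with at least 50 UMIs in the granule protease, immediate early and mitochondrially encoded lists, in mast cells (filled, with exact 95% counting intervals) and in all other barcodes (open diamonds). In mast cells the list medians are -0.98, -0.84 and 1.42, and in the other barcodes they are -1.14, 0.18 and -0.05, the first of which includes 4 Pdgfra barcodes in each library that met the marker count.

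The tryptases differed more than the chymases. Tpsb2 had 1963 UMIs in FGF8 and 4952 in BSA mast cells, which is 7704 and 17009 CPM (log2 ratio -1.14, interval -1.22 to -1.07). Per cell, Tpsb2 had a median of 7383 CPM in FGF8 (0 to 26756) and 10574 CPM in BSA (up to 65016), and the cells of the libraries overlapped widely. Tpsab1 stood at 2504 and 6488 CPM (-1.37, -1.51 to -1.24), and the membrane tryptase Tpsg1 at 78.5 and 155 CPM (-0.98, -1.82 to -0.19). Cma1 differed least, with 59837 and 63910 CPM (-0.10, -0.13 to -0.06), and per cell its median was higher in FGF8, at 68313 CPM, than in BSA, at 55502 CPM. Mcpt4 (-0.52) and Cpa3 (-0.60) lay between. With equal weight per cell Tpsb2, Tpsab1 and Tpsg1 stayed lower, at -0.71, -1.29 and -0.53, while Cma1 and Mcpt4 turned to 0.24 and 0.09. The 4 BSA cells with the most Tpsb2 held 1967 of its 4952 UMIs. For Tpsab1 1 BSA cell held 356 of 1889 UMIs. In barcodes below the marker count Cma1 stood at 7.69 (FGF8) and 4.85 CPM (BSA), Tpsb2 at 2.2 and 1.5 CPM, and Mcpt4 at 1.24 and 2.09 CPM.

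Ctsg, the granule protease cathepsin G, had 115 UMIs in FGF8 and 580 in BSA mast cells, a log2 ratio of -2.14 (-2.44 to -1.85). It was found in 25 FGF8 and 22 BSA cells. The FGF8 cells ran from 0 to 3616 CPM (median 0) and the BSA cells from 0 to 9474 CPM (median 140). One BSA cell held 155 of the UMIs and the next 109, and the 4 BSA cells with the most held 440 of the 580. Given equal weight per cell the log2 ratio was -1.06.

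The AP-1 gene Junb had 76 UMIs in 33 FGF8 cells and 381 in 28 BSA cells, a log2 ratio of -2.13 (-2.51 to -1.77). Its median per cell was 148 CPM in FGF8 and 813 CPM in BSA, and its highest values were alike, at 4407 and 4873 CPM. After thinning, 45.7% of FGF8 and 68.6% of BSA mast cells held a Junb UMI. In the other barcodes its log2 ratio was 0.28. Jun and Fosb, of the same AP-1 family, stood at 777 and 1659 CPM (-1.09) and at 94.2 and 203 CPM (-1.11), but with equal weight per cell the ratios were -0.29 for Jun and 0.26 for Fosb. Junb kept -1.13 under that weighting. The orphan nuclear receptors Nr4a3 (-2.83) and Nr4a1 (-1.24), the mRNA decay factor Zfp36 (-2.06) and the NF-kappaB inhibitor Tnfaip3 (-1.51) were lower too. Their log2 ratios in the other barcodes were 0.12, -0.15, 0.08 and 0.43. Egr1 (0.37, -0.23 to 0.98) and Klf6 (0.21, -0.20 to 0.61) were the exceptions, with intervals that held 0.

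The chemokines Ccl2 and Ccl7 stood higher both in FGF8 mast cells and in the rest of that library. Ccl2, which recruits monocytes, stood at 1032 and 687 CPM in mast cells (log2 ratio 0.59, 0.32 to 0.86), and 80.0% of thinned FGF8 and 42.9% of thinned BSA mast cells held it. The other barcodes held it in 16.2% and 7.65% after thinning, with a log2 ratio of 1.45. In mast cells called female the Ccl2 ratio was 0.45 (-0.002 to 0.89), and in those called male 0.01 (-0.71 to 0.81). Both of these intervals held 0. Ccl7, its neighbour on the chromosome and another monocyte attractant, stood at 1111 and 319 CPM (1.80, 1.46 to 2.15) in mast cells, with a log2 ratio of 1.52 in the other barcodes. Ccl7 was found in 27 FGF8 and 13 BSA mast cells, and the FGF8 cell with the most held 54 of 283 UMIs. That cell also held the most Ccl2 of the FGF8 cells (32 UMIs), and it was the cell with the lowest protease share, with 7 fibroblast markers and 0 UMIs of Srgn, Hdc and Kit. The log2 ratio of Ccl7 was 1.82 without the top cell of each library, 1.33 without cells holding 4 or more fibroblast markers and 1.05 with equal weight per cell. Among cytokine genes with enough UMIs, 1 of 8 stood over 2-fold higher, with a median of 0.14.

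**Figure D5:**
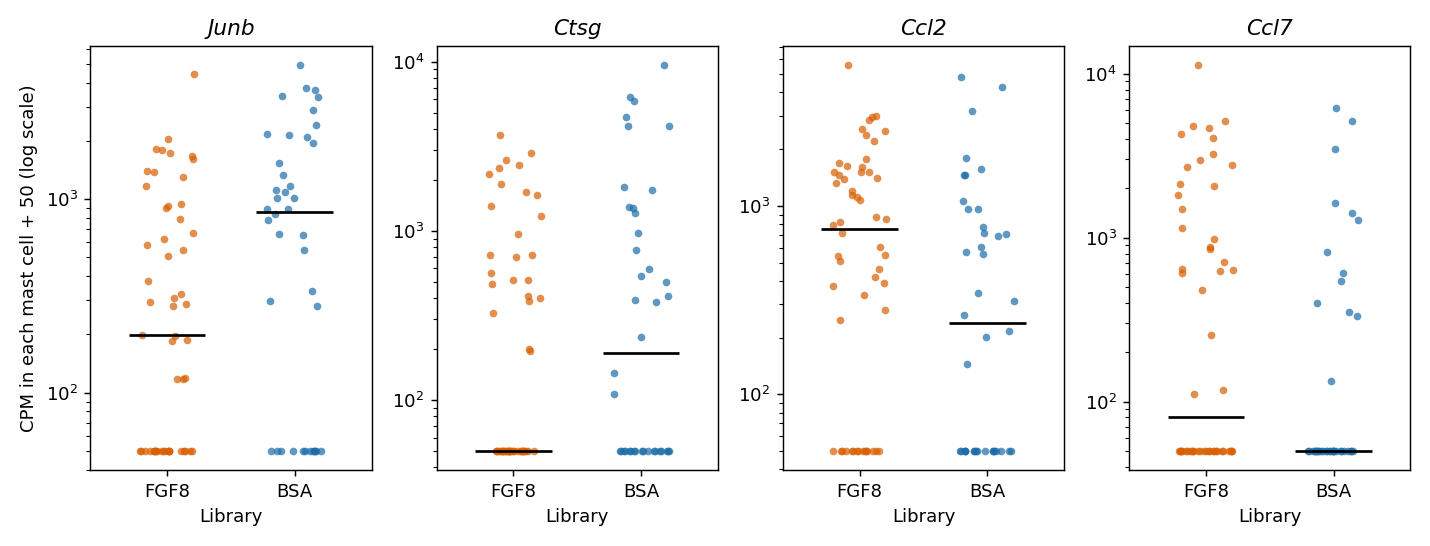
CPM of Junb, Ctsg, Ccl2 and Ccl7 in each mast cell, with 50 added, on a log scale, FGF8 in orange and BSA in blue, with lines at the medians. The cells of the libraries overlap for each gene, and the medians for Junb are 148 and 813 CPM.

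The 12 genes with the highest ratios that met the rule for naming held 4 mitochondrially encoded genes: mt-Nd1 (1.95), mt-Nd2 (1.86), mt-Cytb (1.74) and mt-Co3 (1.54). The others were Marf1 (2.97), Timp1 (1.96), Id3 (1.81), Ccl7, Eif1ax (1.75), Mir142hg (1.64), Manf (1.58) and Cald1 (1.49). Single FGF8 cells held 28 of 48 Marf1, 20 of 43 Id3 and 17 of 41 Timp1 UMIs. With equal weight per cell the ratios were 0.60 for Timp1, 0.50 for Id3, 0.57 for Manf and 0.23 for Cald1. Timp1, a metalloproteinase inhibitor, had a log2 ratio of 2.11 in the other barcodes, where its level was higher than in mast cells. Manf, a protein of endoplasmic reticulum stress, had 89 and 34 UMIs and was found in 51.9% and 55.0% of cells. The lowest 12 were Lars2 (-3.94), Sparcl1 (-3.13), Camk1d (-3.12), Nr4a3, Cmss1 (-2.63), Pik3r6 (-2.55), Gphn (-2.54), Ctsg, Junb, Mylip (-2.09), Zfp36 and Tle5 (-2.05). One BSA cell held 38 of 73 Mylip UMIs. Sparcl1 had 6 UMIs in 2 FGF8 cells and 60 in 5 BSA cells, 22 of them in 1 cell. It stood at 23.5 and 206 CPM in mast cells, against 150 and 223 CPM in the other barcodes. Lars2, Camk1d, Cmss1 and Gphn also stood lower in the other barcodes, by log2 ratios of -0.65, -1.01, -0.78 and -0.69. Pik3r6, a regulatory subunit of the PI3-kinase that mast cells use downstream of G protein-coupled receptors, had 14 UMIs in FGF8 and 94 in BSA cells, against a log2 ratio of -0.26 in the other barcodes.

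Mitochondrial share, depth and sex calls differed between the FGF8 and BSA mast cells. A mitochondrial share of 5% or more was found in 12 FGF8 and 3 BSA mast cells. An alternative chosen after seeing the data kept cells with at least 2000 UMIs and under 5% mitochondrial share. There 54 of 1519 genes stood over 2-fold higher in FGF8 and 65 over 2-fold lower. By Xist and Y-linked transcripts, 10 FGF8 cells were called female and 17 male, and 21 BSA cells female and 3 male, with 27 and 16 not called. In female cells alone the log2 ratios were -1.64 for Tpsb2, -2.53 for Tpsab1, -1.90 for Junb, 2.22 for Ccl7 and 2.18 for mt-Co3. In male cells alone, with 3 BSA cells, they were 0.28, 0.61, -1.41, -0.55 and -0.31, so all but Junb had the opposite sign, although the male intervals of Tpsb2 and Ccl7 held 0. Mcpt4 (-0.58 and -0.83), Cpa3 (-0.96 and -0.33) and Ctsg (-4.66 and -1.13) were lower in both sexes. The part of sex in the differences between libraries was not tested.

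Differences in other mast cell groups were smaller than in those above. Hdc was 0.26 (0.11 to 0.40) and Srgn 0.16 (0.05 to 0.26) on the log2 scale, and Kit was -0.12 (-0.49 to 0.24). Of the 6 amine genes 5 were lower, with a median of -0.48, and 7 of 7 exocytosis and granule genes were lower, with a median of -0.37 and none by 2-fold. Of 11 transcription factors 6 were higher and 5 lower, with a median of 0.17. FGF feedback genes had too few UMIs: 2 of 15 reached 50, Spred1 at 0.07 (-0.56 to 0.69) and Egr1. Cell cycle genes gave no stable direction: 13 of 18 were higher, beside 859 of all 1697 genes, with a median of 0.17 that was 0.93 after thinning and -0.10 when Pdgfra was not used. In the other barcodes the median of the same genes was 0.66. Mki67, a proliferation marker, had a UMI in 13 FGF8 and 5 BSA mast cells, 12 and 5 of which also held Top2a, and after thinning the shares were 17.1% and 8.57% beside 12% and 6.61% of the other barcodes.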

How the data were processed

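Single cells of 1 FGF8 and 1 BSA library were measured. The authors aligned reads with Cell Ranger 9.0.0 to a GRCm39 reference and deposited raw UMI counts per gene and barcode (7249 and 3703 barcodes, 33696 genes). UMI counts were summed over the mast cells of each library and scaled to CPM with Python 3.11.15, numpy 2.4.6, scipy 1.17.1 and pandas 2.3.3; figures used matplotlib 3.10.9. Log2 ratios carry exact conditional, sums exact Poisson and shares Clopper-Pearson 95% intervals, tried on simulated data. A gene with 0 UMIs entered at 3. Ratios needed 50 UMIs over both libraries. Macrophage-marked barcodes held C1qa, C1qb and C1qc, neutrophil-marked barcodes at least 3 of S100a8, S100a9, Retnlg, Mmp8, Camp, Ltf and Ngp. Sex was called from Xist and Ddx3y, Eif2s3y, Kdm5d and Uty. Named were genes of the lists, the 12 highest and 12 lowest ratios (in at least 10% of the cells of 1 library, same sign with equal weight per cell and without the top cell of each library, sex-linked genes aside) and the 25 genes furthest above other barcodes. Members and lists were chosen with earlier results of these data known. Doublets were not removed. Alternatives changed the rule, filters, depth, weighting, scaling and cells. Promoters came from RefSeq (GRCm38.p6), gene positions from GENCODE (GRCm39).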

Additional observations from a re-analysis of the deposited data

How the results depend on the processing

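The granule protease median kept its sign under all 18 alternatives, and the IgE median under all but male-called cells (0.13). Most genes of the protease median had also chosen the cells, so its sign is a description. Genes tested numbered 1697, but 376 with cells thinned to 2000 UMIs, 3934 and 796 with minimums of 20 and 100 UMIs, 395 in male-called cells, 2134 when Pdgfra was not used and 1235 without cells holding 4 or more fibroblast markers, so the counts below rest on different totals. The count of genes over 2-fold higher, 56, became 10 thinned, 190 at 20 UMIs and 25 at 100. The count over 2-fold lower, 76, became 128 when Pdgfra was not used, 22 thinned, 115 with equal weight per cell, 354 and 34 at 20 and 100 UMIs, 12 in male-called cells, and 47 without fibroblast-marked cells, an alternative chosen after seeing the data. The 112 genes over 8-fold above the other barcodes became 39 thinned, and the shares of mast cells became 0.590% (FGF8) and 1.20% (BSA). The cell cycle median of 0.17 was -0.10 without the use of Pdgfra, 0.93 thinned, 0.62 with equal weight, -0.051 at 100 UMIs, -1.07 for the female and -0.72 for the male calls, and 0.45 without the deepest cell of each library. The immediate early median of -0.84 was -0.31 with equal weight, -0.57 for the female and 0.52 for the male calls. In male-called cells (17 and 3) signs also turned for the mitochondrial median (-0.29), mt-Co3 (-0.31), mt-Cytb (-0.23), mt-Nd1 (-0.33), Cald1 (-0.92), Camk1d (0.012), Ccl7 (-0.55), Fosb (0.37), Mir142hg (-0.77), Mylip (0.66), Tle5 (0.37), Tpsab1 (0.61) and Tpsb2 (0.28). Mir142hg was -0.34 in female-called cells, Fosb 0.26 with equal weight, and Timp1 -0.67 when Pdgfra was not used. The cause was not tested. Of 716 values for 39 named genes and the mitochondrial median, 688 kept their sign. Some of these values could not turn. The minimums of 20 and 100 UMIs do not enter a single gene's ratio. The 12 highest and 12 lowest genes were named only where equal weight per cell kept their sign. No paired analysis was possible because each condition is 1 library without a replicate number, and no library could be left out.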
